A study of Mus musculus with 7 samples.

Results

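The constitutive proteasome subunit genes were described in mouse embryonic fibroblasts (MEFs, connective tissue cells grown from embryos) of 3 genotypes that all lacked p53. Members were the rows of the deposited expression table named Psma, Psmb, Psmc or Psmd followed by a number alone, without Psmb8, Psmb9 and Psmb10, whose products replace catalytic subunits in the immunoproteasome. The rule found 36 of 29955 gene rows. Of these, 16 belong to the core particle and 20 to the regulatory particle or to the chaperones that assemble it. RNA-seq was run on total RNA in 7 libraries, all of strain C57BL/6. The groups were p53KO Mdm2(C462A) KI (2 libraries), in which p53 is knocked out and Mdm2 carries a knocked-in substitution of a cysteine of its RING domain, p53Mdm2 KO (2 libraries), in which both genes are knocked out, and p53 KO (3 libraries). The study asked what Mdm2, a ubiquitin ligase best known for sending p53 to the proteasome, does in cells without p53. No library with intact p53 was analysed here. The labels do not give the age of the embryos, the design of the alleles, or if each replicate is an embryo or culture of its own. The p-values below therefore speak of the spread among these libraries alone, and that spread may be technical.

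The proteasome degrades proteins tagged with ubiquitin. Its barrel-shaped core particle stacks rings of alpha subunits (Psma genes), which form the gate, around rings of beta subunits (Psmb genes), some of which cut peptide bonds. The regulatory particle caps the barrel with a base, holding a ring of ATPases (Psmc genes) that unfold substrates and larger non-ATPase subunits (some Psmd genes), and a lid (other Psmd genes), which removes the ubiquitin chain. When proteasome activity falls, the transcription factor Nfe2l1 is known to raise subunit genes together through antioxidant response elements.

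Promoter windows, from 250 bases before to 50 bases after the annotated start, were found for 29 of the 36 members in RefSeq tables (GRCm38.p6). The core of the antioxidant response element, TGACNNNGC on either strand, was in the windows of 5 of these 29 (17.2%), against 14% of 27025 genes. The 5 windows are shown because they hold the letters that Nfe2l1 is known to read, in capitals. Psmb5 and Psmb6 are also the catalytic subunit genes with a window here. The Psmd8 window is shown because Psmd8 had the largest difference between genotypes among the members, and it was chosen after its values were seen.
Psmb5, chr14:54617946-54618245, minus strand: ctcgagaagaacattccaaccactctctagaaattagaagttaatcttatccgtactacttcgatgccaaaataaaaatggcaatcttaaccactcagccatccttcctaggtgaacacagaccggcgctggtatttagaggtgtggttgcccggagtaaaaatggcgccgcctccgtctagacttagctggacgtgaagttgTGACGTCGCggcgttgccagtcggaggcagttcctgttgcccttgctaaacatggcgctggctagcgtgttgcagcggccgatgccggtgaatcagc
Psmb6, chr11:70525107-70525406, plus strand: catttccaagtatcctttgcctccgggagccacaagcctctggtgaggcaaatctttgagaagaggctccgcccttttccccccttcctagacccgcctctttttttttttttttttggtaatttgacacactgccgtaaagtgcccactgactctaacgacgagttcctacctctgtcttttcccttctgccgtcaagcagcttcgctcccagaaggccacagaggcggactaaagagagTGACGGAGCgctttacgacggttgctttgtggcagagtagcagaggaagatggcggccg
Psmc6, chr14:45329574-45329873, plus strand: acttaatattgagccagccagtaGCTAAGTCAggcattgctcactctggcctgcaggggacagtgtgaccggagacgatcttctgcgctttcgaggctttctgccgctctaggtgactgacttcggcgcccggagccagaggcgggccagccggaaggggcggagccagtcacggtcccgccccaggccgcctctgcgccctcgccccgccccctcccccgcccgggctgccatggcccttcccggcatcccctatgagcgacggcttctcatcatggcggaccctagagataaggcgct
Psmd9, chr5:123227940-123228239, plus strand: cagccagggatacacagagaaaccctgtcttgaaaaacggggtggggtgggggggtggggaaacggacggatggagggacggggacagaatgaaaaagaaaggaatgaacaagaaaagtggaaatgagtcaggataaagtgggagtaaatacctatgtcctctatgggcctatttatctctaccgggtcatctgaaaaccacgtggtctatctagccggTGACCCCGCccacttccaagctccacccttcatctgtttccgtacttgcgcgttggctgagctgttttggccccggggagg
Psmd12, chr11:107479278-107479577, plus strand: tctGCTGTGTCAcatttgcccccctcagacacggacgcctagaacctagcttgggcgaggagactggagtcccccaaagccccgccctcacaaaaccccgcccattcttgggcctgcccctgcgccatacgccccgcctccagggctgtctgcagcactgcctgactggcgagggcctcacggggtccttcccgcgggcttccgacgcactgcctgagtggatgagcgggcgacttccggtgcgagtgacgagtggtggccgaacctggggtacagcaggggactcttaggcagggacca
Psmd8, chr7:29180624-29180923, minus strand: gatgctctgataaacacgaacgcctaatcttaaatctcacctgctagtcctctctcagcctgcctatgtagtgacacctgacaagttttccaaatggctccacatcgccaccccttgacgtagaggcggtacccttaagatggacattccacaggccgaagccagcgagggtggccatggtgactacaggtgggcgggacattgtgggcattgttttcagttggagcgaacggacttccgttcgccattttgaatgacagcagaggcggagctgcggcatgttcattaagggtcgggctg

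In the Psmc6 and Psmd12 windows the element reads on the other strand, and in 1 of the 5 windows it overlaps a GC box. The Psmd8 window did not contain these letters. Other short motifs were counted on both strands in the same windows. The ETS core CCGGAAG was in 10 of 29 members (34.5%) and 9.93% of all genes, the GC box GGGCGG in 18 (62.1%) and 38.2%, and the CCAAT box CCAAT in 12 (41.4%) and 41.1%. These matches describe letters in a window. The factors that bind there were not measured.

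Depth per library ranged between 28.5 M and 41.5 M reads. A normalized read is a read scaled to a common depth, recovered from the deposited log2-scale values. All 10 fibroblast markers listed for the check of the label had reads in each genotype. In p53 KO replicate 1, however, the surface marker Thy1 had 99.1 normalized reads and the collagen gene Col1a2 3456, against 30211 and 369580 in p53 KO replicate 2. Of the same 10 markers, 3 were highest and 3 lowest in p53 KO replicate 1, and the median deviation there was 0.04 on the log2 scale. It was 0.21 and -0.58 in p53KO Mdm2(C462A) KI replicates 1 and 2 and 0.49 and -0.43 in p53Mdm2 KO replicates 1 and 2. In p53 KO replicates 2 and 3 it was 0.26 and 0.70. Replicate 2 of p53Mdm2 KO held the lowest value of 5 of the 10, against 15.8% of all genes tested. Col1a1 and Col3a1 were lower without overlap in p53Mdm2 KO than in p53 KO cells, against 9.2% of all genes. S100a4, a calcium-binding protein gene, had 8828 and 731.2 normalized reads in p53KO Mdm2(C462A) KI, 15432 and 17241 in p53Mdm2 KO and 37554, 9779 and 10769 in p53 KO cells. Vim, the gene of the intermediate filament vimentin, had 85185 and 40846 in p53KO Mdm2(C462A) KI, 110204 and 151271 in p53Mdm2 KO and 155416, 143854 and 98410 in p53 KO cells. Both were lower in p53KO Mdm2(C462A) KI without overlap with either genotype, and lowest in replicate 2. There Thy1 had 6592, against 36470 in p53KO Mdm2(C462A) KI replicate 1. The list as a whole went both ways. Of the 10 markers, 5 were higher in p53KO Mdm2(C462A) KI than in p53 KO cells, and 7 higher than in p53Mdm2 KO cells. Against p53 KO, Dcn was higher without overlap (14.1% of all genes), and Col1a1, Col3a1, S100a4 and Vim were lower (14.4%). Against p53Mdm2 KO, Fn1 was higher without overlap (15.8%), and S100a4 and Vim were lower (17.1%).

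Summed markers of epithelial cells ran between 385.9 and 2408 normalized reads in p53KO Mdm2(C462A) KI, 1975 and 2296 in p53Mdm2 KO and 450.9 and 1068 in p53 KO cells. Those of endothelial cells ran between 453.1 and 587.4 in p53KO Mdm2(C462A) KI, 846.2 and 1056 in p53Mdm2 KO and 73.6 and 597.5 in p53 KO cells. Both sums were higher in p53Mdm2 KO than in p53 KO cells without overlap, the endothelial sum also without overlap with p53KO Mdm2(C462A) KI. In p53Mdm2 KO replicates 1 and 2, Krt19 alone had 1240 and 1911 normalized reads, and the endothelial gene Kdr 693 and 994. The lists as a whole did not follow. Of the markers tested, 2 of 4 epithelial and 2 of 3 endothelial genes were lower in p53Mdm2 KO than in p53 KO cells. The part of these markers in the subunit values was not tested. The epithelial keratin gene Krt5 was at 0 reads in p53KO Mdm2(C462A) KI and p53Mdm2 KO, and had 0.909 normalized reads in 1 p53 KO library. Summed markers of blood cells ran between 80.3 and 1050 normalized reads in p53KO Mdm2(C462A) KI, 149 and 1155 in p53Mdm2 KO and 255 and 2635 in p53 KO cells. All 5 blood markers tested were highest in p53 KO replicate 3, against 9.95% of all genes tested. All 5 were lower in p53KO Mdm2(C462A) KI than in p53 KO cells, and 3 of 5 were lower in p53Mdm2 KO. In such bulk samples, fewer cells of a type and less RNA per cell cannot be told apart.

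Nearly all subunit genes were highly expressed. The filter of a mean of at least 10 normalized reads was passed by 35 of the 36 members. Psma8, which replaces Psma7 in testis, was not tested. It had 2.0 and 1.8 normalized reads in p53KO Mdm2(C462A) KI, 1.9 and 3.9 in p53Mdm2 KO and 8.2, 7.4 and 3.2 in p53 KO cells, close to the 2.65 to 3.86 normalized reads that 3 reads are worth. Psmb11, the catalytic subunit of the thymus, had 107.3 and 112.0 normalized reads in p53KO Mdm2(C462A) KI, 67.7 and 128.8 in p53Mdm2 KO and 65.4, 88.2 and 93.8 in p53 KO cells. Its level was 22.3 normalized reads per kb of transcript over all libraries.

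Levels can be set side by side between genes per length. The 31 members that are lasting parts of the particle outside the testis and thymus lay between 1027 normalized reads per kb (Psmd11, a lid subunit) and 5017 (Psma7, an alpha ring subunit), a 4.88-fold range around a median of 3028. The 3 catalytic subunit genes sat together at 4500 to 4709 normalized reads per kb. The base assembly chaperones Psmd5, Psmd9 and Psmd10, which bind the ATPases before the base joins the core, were at 414 to 575. Median levels per kb were 2971 for the alpha ring, 4349 for the non-catalytic beta subunits, 2959 for the ATPases, 3028 for the base non-ATPases and 2438 for the lid. Annotated transcripts, not those of these cells, gave the lengths.

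**Figure D1:**
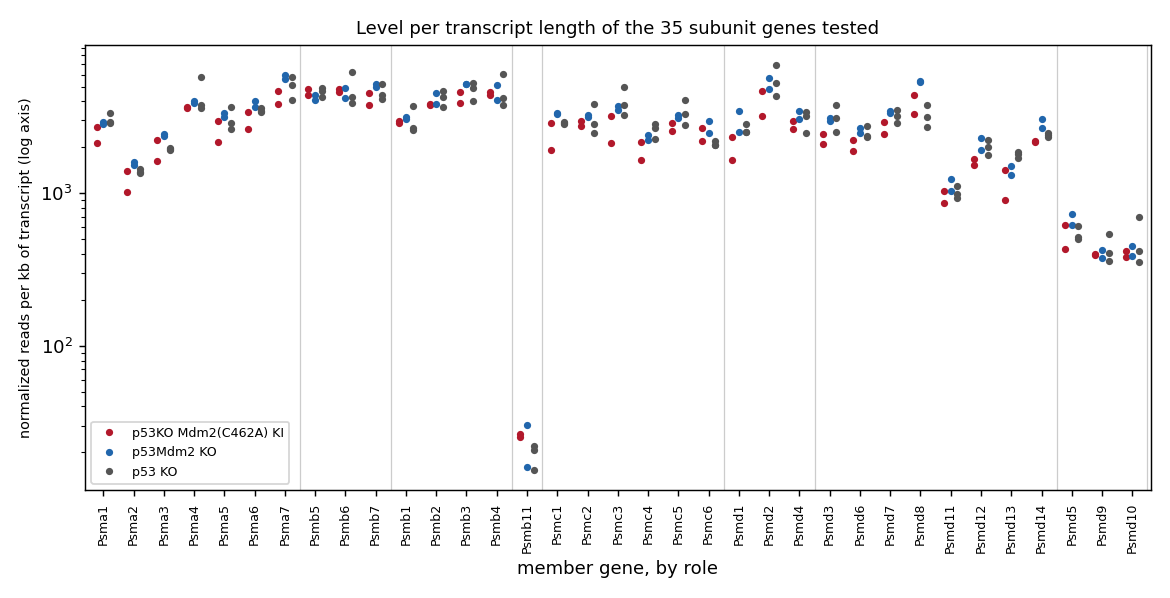
Level of the 35 tested subunit genes in each library, as normalized reads per kb of annotated transcript on a log axis, with genes grouped by role between the vertical lines and 1 point per library coloured by genotype. The catalytic subunit genes lie at 4500 to 4709 averaged over libraries, the base assembly chaperones at 414 to 575 and Psmb11 at 22.3.

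The members also varied little among libraries. Across the 7 libraries the highest value of a member was a median of 1.57 times its lowest, with a range of 1.21 (Psmb5) to 2.34 (Psmc3), and 31 of 35 members stayed under 2-fold. Over all genes tested the median was 2.08 and 46.9% stayed under 2-fold. Among genes with a mean of at least 500 normalized reads the median was 1.78 and 61.4% stayed under 2-fold. Most members lay far above 500 normalized reads, so that set is not matched to them by level. The median standard deviation within groups was 0.21 on the log2 scale for the members and 0.31 for all genes tested (0.27 for those with a mean of at least 500).

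Libraries of the same genotype also differed in their subunit levels. On the log2 scale, the median deviation of the 35 members from their own means was -0.04 and -0.29 in p53KO Mdm2(C462A) KI replicates 1 and 2. It was 0.07 and 0.12 in p53Mdm2 KO replicates 1 and 2, and 0.21, 0.05 and -0.14 in p53 KO replicates 1, 2 and 3. The 2 libraries of p53Mdm2 KO lay close together, while those of p53KO Mdm2(C462A) KI and of p53 KO were spread out and overlapped. p53KO Mdm2(C462A) KI replicate 2 held the lowest value of 23 of 35 members (65.7%), against 21.5% of all genes tested, and p53 KO replicate 1 held the highest of 21 (60%), against 28.1%. Replicate 2 of p53KO Mdm2(C462A) KI is also the library with the lowest Vim and S100a4 values, and replicate 1 of p53 KO the one with few Thy1 and Col1a2 reads and the highest S100a4 value. The part of these markers in the subunit values was not tested. As a share of all reads, the members took 0.412% and 0.354% in p53KO Mdm2(C462A) KI, 0.446% and 0.464% in p53Mdm2 KO and 0.487%, 0.403% and 0.360% in p53 KO cells.

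The balance of core and regulatory particle genes, the latter with the base assembly chaperones, varied among libraries. The ratio of summed core to summed regulatory reads was 0.681 and 0.730 in p53KO Mdm2(C462A) KI, 0.680 and 0.587 in p53Mdm2 KO and 0.652, 0.613 and 0.658 in p53 KO cells. Both p53KO Mdm2(C462A) KI values lay above all p53 KO values, and the p53Mdm2 KO values lay on either side of them. The median log2 difference in p53Mdm2 KO against p53 KO cells was 0.11 for core genes and 0.08 for regulatory genes. These medians were -0.14 and -0.26 in p53KO Mdm2(C462A) KI against p53 KO and -0.25 and -0.33 in p53KO Mdm2(C462A) KI against p53Mdm2 KO cells. Core and regulatory genes were not tested against each other.

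**Figure D2:**
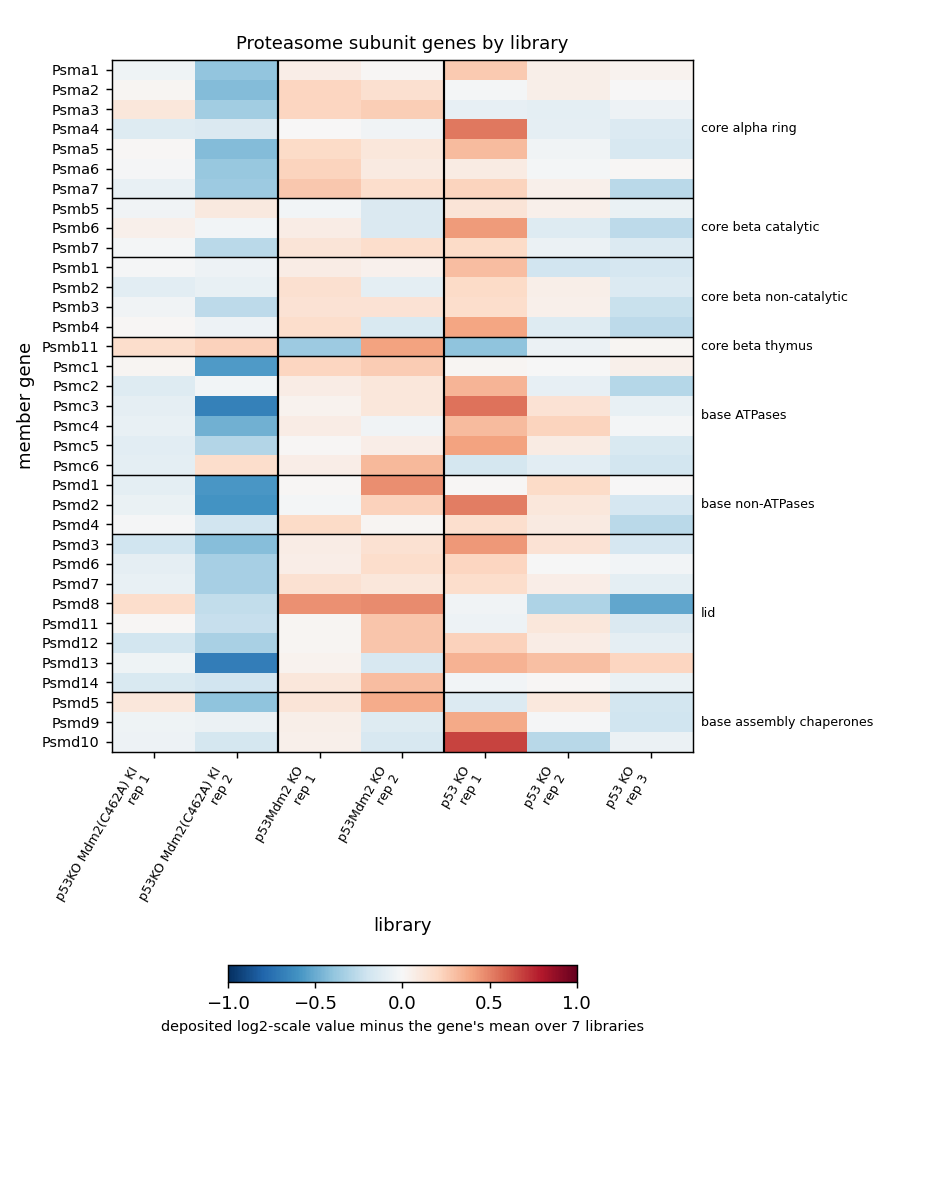
Deviation of each tested subunit gene (rows, by role) from its own mean over 7 libraries, in deposited log2-scale units, with 1 column per library and blue below and red above the mean. p53KO Mdm2(C462A) KI replicate 2 is blue in most rows, where it holds the lowest value of 23 of 35 genes, and p53 KO replicate 1 is red in most, where it holds the highest of 21.

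In p53Mdm2 KO against p53 KO cells, which asks what loss of Mdm2 does without p53, 22 of 35 members were higher and 13 lower. The median log2 difference of the members was 0.09, beside -0.01 for all genes tested. The groups did not overlap, on the higher side, for 8 members (Psma2, Psma3, Psma6, Psmc1, Psmc6, Psmd5, Psmd8 and Psmd14), against 8.99% of all genes, and on the lower side for Psmd13, against 9.2%. By limma, 0 members and 0 of 16900 genes passed an adjusted p of 0.05 (0% of genes). The unadjusted p was under 0.05 for 507 genes, and voom, a test on the recovered reads, also called 0, with 470 unadjusted. Psmd8 was the 1 member under the unadjusted threshold on the higher side, against 1.51% of genes, and 0 were under it on the lower side, against 1.49%. Without p53 KO replicate 1, the members higher without overlap numbered 17, against 17.6% of all genes, and the median was 0.16. Without p53 KO replicate 3 the median was -0.0017, with 17 of 35 members higher.

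In p53KO Mdm2(C462A) KI against p53 KO cells, which asks about the RING substitution in the same background, 4 members were higher (Psmb6, at 0.00, Psmb11, Psmc6 and Psmd8) and 31 lower. The median log2 difference was -0.22, beside 0.01 for all genes tested. The groups did not overlap on the lower side for 9 members, 1 in the core (Psma1) and 8 in the regulatory particle (Psmc3, Psmc4, Psmd1, Psmd3, Psmd6, Psmd12, Psmd13 and Psmd14), against 14.4% of all genes. On the higher side they did not overlap for Psmb11 and Psmc6, against 14.1%. By limma 0 members and 0 of 16900 genes passed the adjusted threshold, 1761 genes had an unadjusted p under 0.05, and voom called 0, with 1724 unadjusted. Psmd13 was the 1 member under the unadjusted threshold on the lower side, against 5.44% of genes, and 0 members were under it on the higher side, against 4.98%.

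The median lay closer to 0 without the libraries that stood apart. These libraries, p53KO Mdm2(C462A) KI replicate 2 and p53 KO replicate 1, held the lowest and the highest value of most members. Leaving them out moves the median toward 0 in any case, and is no test of the difference. Leaving out p53KO Mdm2(C462A) KI replicate 2 gave a median of -0.08 with 10 of 35 members higher, and leaving out p53 KO replicate 1 gave -0.10, also with 10. Leaving out both gave -0.0019, with 17 members higher. Members lower without overlap numbered 9 in each of these settings, against 23.5%, 24.5% and 38.0% of all genes in the same order. Members higher without overlap, 2 with all libraries, numbered 5, 6 and 11, against 24.6%, 23.9% and 38.4% of all genes. Both comparisons set a genotype against the same 3 p53 KO libraries, so their values are given side by side and not as independent results.

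In p53KO Mdm2(C462A) KI against p53Mdm2 KO cells, which sets the substitution against the loss of Mdm2, 3 members were higher (Psmb5, Psmb6 and Psmb11) and 32 lower. The median log2 difference was -0.30, beside 0.01 for all genes tested. For 26 members, 10 of the core and 16 of the regulatory particle, both p53KO Mdm2(C462A) KI values lay below both p53Mdm2 KO values, against 17.1% of all genes, and for 0 both lay above, against 15.8%. By limma 0 members and 0 of 16900 genes passed the adjusted threshold, 503 genes had an unadjusted p under 0.05, and voom called 0, with 458 unadjusted. Psmd14 was the 1 member under the unadjusted threshold on the lower side, against 1.78% of genes, and 0 were under it on the higher side, against 1.2%. Without p53KO Mdm2(C462A) KI replicate 2 the median was -0.15, with 28 members lower without overlap against 30.3% of all genes.

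**Figure D3:**
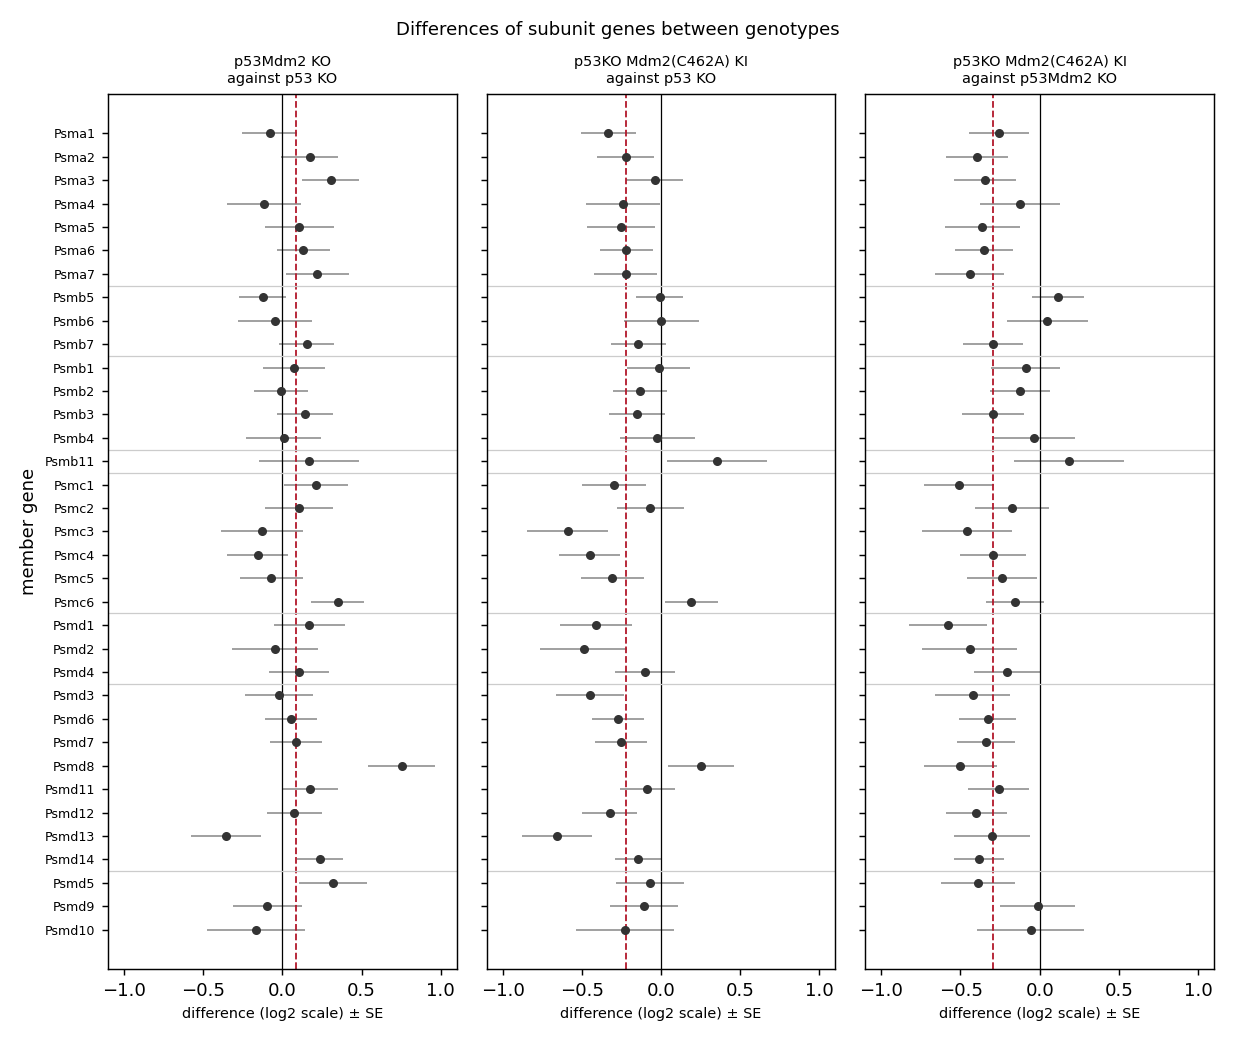
Log2 difference of each tested subunit gene in 3 comparisons, with bars of 1 standard error from the fit over all genes, a solid line at 0 and a dashed line at the median of the 35 members. The dashed lines stand at 0.09, -0.22 and -0.30, and Psmd8 in the left panel (0.75) and Psmd13 in the middle panel (-0.66) lie farthest from 0.

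The alpha ring genes had median differences of 0.13 in p53Mdm2 KO against p53 KO, -0.22 in p53KO Mdm2(C462A) KI against p53 KO and -0.35 in p53KO Mdm2(C462A) KI against p53Mdm2 KO cells. All 7 had their lowest value in p53KO Mdm2(C462A) KI replicate 2. Psma3 had 6342 and 4600 normalized reads in p53KO Mdm2(C462A) KI, 6789 and 6951 in p53Mdm2 KO and 5523, 5480 and 5664 in p53 KO cells. The p53Mdm2 KO libraries lay above all others, and those of p53KO Mdm2(C462A) KI lay on either side of p53 KO. The log2 difference was 0.31 (SE 0.180) in p53Mdm2 KO against p53 KO and -0.35 (SE 0.197) in p53KO Mdm2(C462A) KI against p53Mdm2 KO cells, and neither passed limma (adjusted p = 1.00 each).

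Psma1 had 3286 and 2571 normalized reads in p53KO Mdm2(C462A) KI, 3542 and 3403 in p53Mdm2 KO and 4061, 3511 and 3462 in p53 KO cells. Both p53KO Mdm2(C462A) KI values were below all the others, with the second far below the first. Its difference of -0.33 (SE 0.174) against p53 KO was the most negative of the alpha ring in that comparison and did not pass (limma adjusted p = 0.560). Psma7 had 4290 and 3511 in p53KO Mdm2(C462A) KI, 5456 and 5113 in p53Mdm2 KO and 5288, 4681 and 3757 in p53 KO cells. Here p53 KO spanned nearly the range of both other groups, and p53KO Mdm2(C462A) KI against p53Mdm2 KO gave -0.44 (SE 0.219), the most negative of the ring in that comparison (limma adjusted p = 1.00).

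Psma4, whose counterpart in yeast has a tail that helps close the gate, had 4273 and 4226 normalized reads in p53KO Mdm2(C462A) KI, 4697 and 4564 in p53Mdm2 KO and 6763, 4400 and 4246 in p53 KO cells. One library, p53 KO replicate 1, stood above the other 6, which lay within a narrow range. Psma4 shares 114 exonic bases with another gene on the opposite strand. The remaining tested alpha ring genes, Psma2, Psma5 and Psma6, had differences of 0.11 to 0.17 in p53Mdm2 KO against p53 KO and -0.25 to -0.22 in p53KO Mdm2(C462A) KI against p53 KO cells.

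Of the 3 catalytic subunit genes, Psmb5 and Psmb6 had differences near 0 in p53KO Mdm2(C462A) KI against p53 KO cells. Psmb5, the chymotrypsin-like subunit, had 3942 and 4311 normalized reads in p53KO Mdm2(C462A) KI, 3952 and 3655 in p53Mdm2 KO and 4410, 4183 and 3865 in p53 KO cells. The 3 genotypes overlapped, and Psmb5 was the steadiest member. Its log2 difference was -0.13 (SE 0.149) in p53Mdm2 KO against p53 KO, -0.01 (SE 0.149) in p53KO Mdm2(C462A) KI against p53 KO and 0.12 (SE 0.163) in p53KO Mdm2(C462A) KI against p53Mdm2 KO cells (limma adjusted p = 1.00, 0.992 and 1.00).

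Psmb6, the caspase-like subunit, had 3861 and 3654 normalized reads in p53KO Mdm2(C462A) KI, 3918 and 3369 in p53Mdm2 KO and 4992, 3403 and 3105 in p53 KO cells. All genotypes overlapped, with p53 KO replicate 1 the highest. Psmb7, the trypsin-like subunit, had 5243 and 4391 in p53KO Mdm2(C462A) KI, 5803 and 5992 in p53Mdm2 KO and 6067, 5097 and 4819 in p53 KO cells. Both p53KO Mdm2(C462A) KI values lay below both p53Mdm2 KO values, and p53 KO overlapped each. The differences of Psmb7 were 0.15 (SE 0.174), -0.14 (SE 0.174) and -0.30 (SE 0.190) in the same order of comparisons (limma adjusted p = 1.00, 0.813 and 1.00). It shares 405 exonic bases with Nek6 on the opposite strand. Pseudogenes of all 3 catalytic subunit genes are annotated, and how their reads were treated is not given in the sources used here.

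The immunoproteasome counterparts varied far more among libraries than the constitutive genes. Psmb8, the counterpart of Psmb5, had 287.7 and 101.4 normalized reads in p53KO Mdm2(C462A) KI, 470.4 and 3.86 in p53Mdm2 KO and 481.7, 91.9 and 161.8 in p53 KO cells. Replicate 2 of p53Mdm2 KO, with 3 reads, stood far below the other 6 libraries, and the genotypes overlapped. Per kb of transcript, Psmb8 amounted to 0.0584% to 6.57% of Psmb5. Psmb9 amounted to 0.0226% to 0.895% of Psmb6, with 1 read in p53Mdm2 KO replicate 2, and Psmb10 to 4.91% to 12.9% of Psmb7.

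Psme1 and Psme2, which encode the interferon-inducible activator of the core, were lowest in that library too, at 830.4 and 1043 normalized reads. In the other 6 libraries they ranged from 1121 to 2405 and from 1895 to 3878. Psmb5, Psmb6 and Psmb7 had 3655, 3369 and 5992 normalized reads there. Of Psmb8, Psmb9, Psmb10, Psme1 and Psme2, 0 passed limma in any comparison and 0 had an unadjusted p under 0.05.

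**Figure D4:**
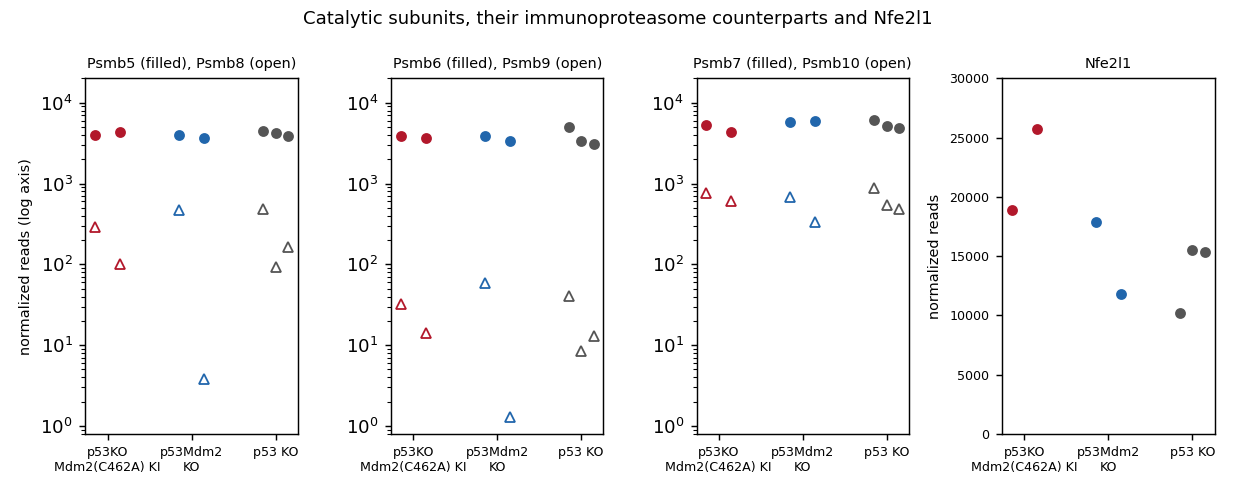
Normalized reads in each library of the catalytic subunit genes (filled circles) and their immunoproteasome counterparts (open triangles) on a log axis, and of Nfe2l1 on a linear axis, by genotype. Filled circles stay within 3105 to 6067 normalized reads, while Psmb8 is at 3.86 in p53Mdm2 KO replicate 2, and both p53KO Mdm2(C462A) KI values of Nfe2l1 lie above all others.

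The non-catalytic beta subunit genes had small differences, with medians of 0.04, -0.08 and -0.11 in the same order of comparisons. Psmb3 had 3518 and 3000 normalized reads in p53KO Mdm2(C462A) KI, 3992 and 3982 in p53Mdm2 KO and 4067, 3741 and 3088 in p53 KO cells. Both p53KO Mdm2(C462A) KI values lay below both p53Mdm2 KO values, and p53 KO covered nearly the whole range. Psmb3 was 0.14 (SE 0.178) in p53Mdm2 KO against p53 KO, -0.15 (SE 0.178) in p53KO Mdm2(C462A) KI against p53 KO and -0.29 (SE 0.195) in p53KO Mdm2(C462A) KI against p53Mdm2 KO cells (limma adjusted p = 1.00, 0.806 and 1.00). Psmb2 had 3253 and 3315 in p53KO Mdm2(C462A) KI, 3909 and 3278 in p53Mdm2 KO and 4009, 3650 and 3179 in p53 KO cells, with all groups overlapping. Psmb1 and Psmb4 had differences between -0.09 and 0.07 in all 3 comparisons.

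Among the ATPases of the base, Psmc3 and Psmc6 had differences of opposite sign in p53KO Mdm2(C462A) KI against p53 KO cells. Psmc3 had 5247 and 3491 normalized reads in p53KO Mdm2(C462A) KI, 5731 and 6063 in p53Mdm2 KO and 8165, 6196 and 5309 in p53 KO cells. It had the widest range of all tested members, with p53 KO replicate 1 at the top and p53KO Mdm2(C462A) KI replicate 2 at the bottom. The p53KO Mdm2(C462A) KI values lay below all others, replicate 1 just below the lowest p53 KO value. Its difference against p53 KO was -0.59 (SE 0.258) and did not pass (limma adjusted p = 0.496). Psmc3 shares 215 exonic bases with Slc39a13 on the opposite strand.

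Psmc6 had 4911 and 5954 normalized reads in p53KO Mdm2(C462A) KI, 5516 and 6609 in p53Mdm2 KO and 4653, 4902 and 4641 in p53 KO cells. All libraries of both Mdm2 genotypes lay above the 3 p53 KO libraries, p53KO Mdm2(C462A) KI replicate 1 by a small margin. The log2 difference was 0.35 (SE 0.167) in p53Mdm2 KO against p53 KO and 0.19 (SE 0.167) in p53KO Mdm2(C462A) KI against p53 KO cells (limma adjusted p = 1.00 and 0.733). Its window, shown above, is 1 of the 5 with the TGACNNNGC core.

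Psmc1 had 4579 and 3038 normalized reads in p53KO Mdm2(C462A) KI, 5247 and 5377 in p53Mdm2 KO and 4571, 4501 and 4670 in p53 KO cells. The p53Mdm2 KO libraries were the highest, and p53KO Mdm2(C462A) KI replicate 2 alone was low, while replicate 1 fell within p53 KO. Its difference in p53KO Mdm2(C462A) KI against p53Mdm2 KO was -0.51 (SE 0.221), the most negative of the ATPases there (limma adjusted p = 1.00). Psmc4 had 3125 and 2364 in p53KO Mdm2(C462A) KI, 3464 and 3215 in p53Mdm2 KO and 4101, 3858 and 3259 in p53 KO cells. Both p53KO Mdm2(C462A) KI values lay below all others, with a difference of -0.45 (SE 0.191) against p53 KO (limma adjusted p = 0.485). Psmc2 and Psmc5 were at -0.07 and -0.31 in the same comparison. The median of the 6 ATPases was 0.02 in p53Mdm2 KO against p53 KO, -0.30 in p53KO Mdm2(C462A) KI against p53 KO and -0.27 in p53KO Mdm2(C462A) KI against p53Mdm2 KO cells.

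The non-ATPase genes of the base, Psmd1, Psmd2 and Psmd4, had the lowest medians of any role in p53KO Mdm2(C462A) KI, at -0.41 against p53 KO and -0.44 against p53Mdm2 KO, beside 0.11 in p53Mdm2 KO against p53 KO cells. Psmd1, a large scaffold subunit, had 7250 and 5175 normalized reads in p53KO Mdm2(C462A) KI, 7838 and 10735 in p53Mdm2 KO and 7812, 8868 and 7799 in p53 KO cells. The p53KO Mdm2(C462A) KI libraries were the lowest, and p53Mdm2 KO replicate 2 the highest. The difference was -0.41 (SE 0.225) against p53 KO and -0.58 (SE 0.246) against p53Mdm2 KO cells (limma adjusted p = 0.580 and 1.00). Psmd1 shares 301 exonic bases with a gene model on its own strand and 252 with Htr2b on the other.

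Psmd2, the scaffold that docks ubiquitin shuttle proteins, had 13755 and 9496 normalized reads in p53KO Mdm2(C462A) KI, 14216 and 16936 in p53Mdm2 KO and 20550, 15590 and 12848 in p53 KO cells. The p53 KO libraries spread widely, and p53KO Mdm2(C462A) KI replicate 1 lay among them. Psmd2 was at -0.49 (SE 0.274) against p53 KO (limma adjusted p = 0.587). Psmd4, a ubiquitin receptor, was at -0.10 (SE 0.190) in the same comparison (limma adjusted p = 0.890).

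The lid held the members with the largest differences. Psmd8, whose counterpart in yeast is the last subunit to join the lid, had 6782 and 5080 normalized reads in p53KO Mdm2(C462A) KI, 8278 and 8366 in p53Mdm2 KO and 5860, 4849 and 4199 in p53 KO cells. Both p53Mdm2 KO libraries lay well above the other 5, which overlapped across p53KO Mdm2(C462A) KI and p53 KO. The mean was 8322 ± 62.4 in p53Mdm2 KO (SD, n = 2) and 4969 ± 837 in p53 KO cells (SD, n = 3), 67.5% higher. The log2 difference of 0.75 (SE 0.211) had an unadjusted limma p of 0.0104 and an adjusted p of 1.00, so it did not pass. Over 18 alternative settings it ran from 0.64 to 0.88, with an unadjusted p under 0.05 in all 18 and an adjusted p of 0.429 at the lowest. In p53KO Mdm2(C462A) KI Psmd8 was 0.25 (SE 0.211) against p53 KO and -0.50 (SE 0.231) against p53Mdm2 KO cells (limma adjusted p = 0.720 and 1.00). The annotation gave no other gene sharing exonic bases with Psmd8.

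Psmd13, a structural subunit of the lid, had 2831 and 1804 normalized reads in p53KO Mdm2(C462A) KI, 2988 and 2610 in p53Mdm2 KO and 3729, 3609 and 3389 in p53 KO cells. All 4 libraries of the Mdm2 genotypes lay below the 3 p53 KO libraries, which were close together, and p53KO Mdm2(C462A) KI replicate 2 was the lowest. The mean was 2317 ± 726 in p53KO Mdm2(C462A) KI (SD, n = 2) and 3576 ± 173 in p53 KO cells (SD, n = 3), 35.2% lower. The log2 difference of -0.66 (SE 0.220) had an unadjusted limma p of 0.0227 and an adjusted p of 0.443, so it did not pass. It ran from -0.98, without p53KO Mdm2(C462A) KI replicate 1, to -0.30, without both libraries that stood apart, with an unadjusted p under 0.05 in 15 of 18 settings. In p53Mdm2 KO against p53 KO cells Psmd13 was at -0.35 (SE 0.220; limma adjusted p = 1.00). It shares 342 exonic bases with Sirt3 on the opposite strand, and whether reads were counted by strand is not given in the sources used here.

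Psmd14, the enzyme of the lid that cuts ubiquitin chains from substrates, had 3404 and 3317 normalized reads in p53KO Mdm2(C462A) KI, 4095 and 4699 in p53Mdm2 KO and 3706, 3819 and 3617 in p53 KO cells. The 3 genotypes did not overlap, with p53KO Mdm2(C462A) KI lowest and p53Mdm2 KO highest. The difference was 0.24 (SE 0.144) in p53Mdm2 KO against p53 KO and -0.14 (SE 0.144) in p53KO Mdm2(C462A) KI against p53 KO cells (limma adjusted p = 1.00 and 0.772). In p53KO Mdm2(C462A) KI against p53Mdm2 KO it was -0.38 (SE 0.158), with an unadjusted limma p of 0.0491 and an adjusted p of 1.00, and the unadjusted p was under 0.05 in 2 of 18 alternative settings. The other lid genes, Psmd3, Psmd6, Psmd7, Psmd11 and Psmd12, lay between -0.02 and 0.17 in p53Mdm2 KO against p53 KO and between -0.45 and -0.09 in p53KO Mdm2(C462A) KI against p53 KO cells. Their differences in p53KO Mdm2(C462A) KI against p53Mdm2 KO were -0.42 to -0.26, without overlap for all 5, against 17.1% of all genes.

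**Figure D5:**
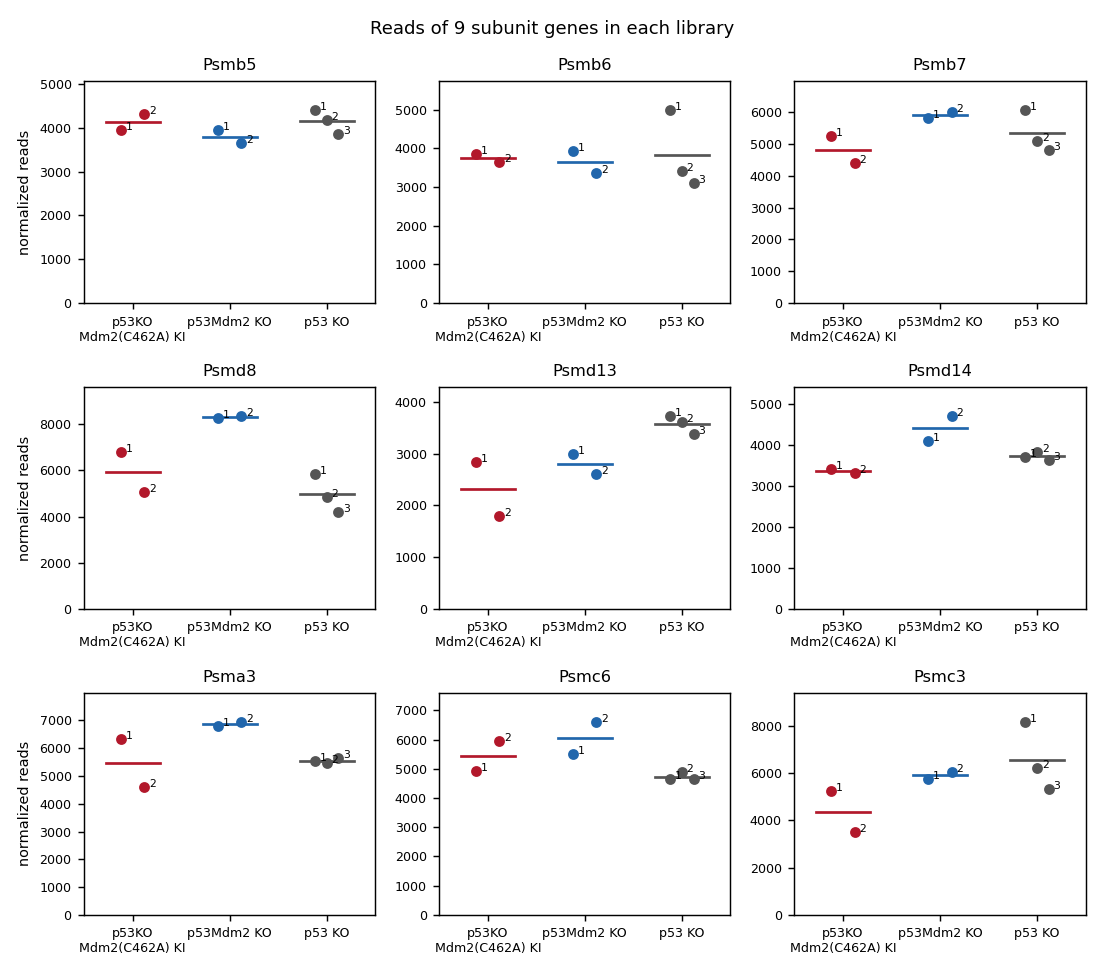
Normalized reads of 9 subunit genes in each library by genotype, with replicate numbers beside the points, a bar at the group mean and axes starting at 0. In the top row of catalytic subunit genes the genotypes overlap for Psmb5 and Psmb6, and Psmb7 has both p53KO Mdm2(C462A) KI libraries (5243 and 4391) below both p53Mdm2 KO libraries (5803 and 5992). Psmd8 has both p53Mdm2 KO libraries (8278 and 8366) above all others, and Psmd13 has all 3 p53 KO libraries (3389 to 3729) above all others.

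Of the base assembly chaperones, Psmd5 had 2706 and 1886 normalized reads in p53KO Mdm2(C462A) KI, 2723 and 3237 in p53Mdm2 KO and 2262, 2689 and 2192 in p53 KO cells. The p53Mdm2 KO values were above the others, replicate 1 only just. The difference was 0.32 (SE 0.214) in p53Mdm2 KO against p53 KO and -0.39 (SE 0.234) in p53KO Mdm2(C462A) KI against p53Mdm2 KO cells (limma adjusted p = 1.00 each). Psmd10 had 598.4 and 544.2 in p53KO Mdm2(C462A) KI, 640.2 and 552.3 in p53Mdm2 KO and 998.9, 506.8 and 594.3 in p53 KO cells. All groups overlapped and p53 KO replicate 1 was high. Psmd9 was between -0.11 and -0.01 in all 3 comparisons.

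Genes that build or drive the proteasome had differences in both directions. Nfe2l1, the transcription factor named above, had 18929 and 25763 normalized reads in p53KO Mdm2(C462A) KI, 17858 and 11826 in p53Mdm2 KO and 10163, 15531 and 15349 in p53 KO cells. Both p53KO Mdm2(C462A) KI libraries were above all others, while p53Mdm2 KO replicates lay on either side of the upper p53 KO values. The log2 difference in p53KO Mdm2(C462A) KI against p53 KO was 0.72 (SE 0.300), with an unadjusted limma p of 0.0516 and an adjusted p of 0.483. In that comparison 31 of 35 subunit genes were lower. Nfe2l1 protein was not measured, and the relation of Nfe2l1 to the subunit values was not tested. The 5 members with the TGACNNNGC core were at -0.01 (Psmb5), 0.00 (Psmb6), 0.19 (Psmc6), -0.32 (Psmd12) and -0.11 (Psmd9) in the same comparison. Nfe2l2, a related factor with oxidative stress targets, was at 0.40, and Ddi2 and Ngly1, which process Nfe2l1 protein, at -0.14 and -0.16 (limma adjusted p = 0.724, 0.886 and 0.875).

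Pomp, the chaperone that matures the core particle, had 2798 and 1708 normalized reads in p53KO Mdm2(C462A) KI, 3207 and 3104 in p53Mdm2 KO and 4385, 2843 and 3104 in p53 KO cells. The p53KO Mdm2(C462A) KI values were the lowest, replicate 1 by a small margin, and the difference against p53 KO was -0.63 (SE 0.280; limma adjusted p = 0.506). Psmg1, a chaperone of the alpha ring, was higher without overlap in both Mdm2 genotypes, at 0.23 in p53Mdm2 KO and 0.22 in p53KO Mdm2(C462A) KI against the same p53 KO libraries (limma adjusted p = 1.00 and 0.691). Psmg2, Psmg3 and Psmg4 lay between -0.12 and 0.15 in those comparisons. The ubiquitin receptor Adrm1 and the deubiquitinase Usp14 were at -0.40 and -0.45 in p53KO Mdm2(C462A) KI against p53 KO cells (limma adjusted p = 0.594 and 0.539), and Shfm1, a small lid subunit, at -0.12 (limma adjusted p = 0.905). Uchl5, another deubiquitinase, was at 0.46 in p53Mdm2 KO against p53 KO cells (limma adjusted p = 1.00). The activators Psme3 and Psme4 were at -0.29 and -0.12 in p53KO Mdm2(C462A) KI against p53 KO cells (limma adjusted p = 0.647 and 0.874).

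Other multi-subunit complexes were set beside the members. The CCT chaperonin, which folds actin and tubulin, had 8 of 8 genes higher in p53Mdm2 KO against p53 KO (median 0.14), 8 of 8 lower in p53KO Mdm2(C462A) KI against p53 KO (-0.29) and 8 of 8 lower in p53KO Mdm2(C462A) KI against p53Mdm2 KO cells (-0.39). Of all genes tested, 48.2%, 51.2% and 51.7% were higher in these comparisons. In the last of them the groups did not overlap for 8 of 8, against 17.1% of all genes on the lower side. Its gene Cct6a had 9413 and 10416 normalized reads in p53KO Mdm2(C462A) KI, 11552 and 16821 in p53Mdm2 KO and 13330, 13572 and 10569 in p53 KO cells, with p53KO Mdm2(C462A) KI below all others. The COP9 signalosome, a relative of the lid, had 6 of 9 genes higher in p53Mdm2 KO against p53 KO (median 0.01), and 9 of 9 lower both in p53KO Mdm2(C462A) KI against p53 KO (-0.11) and in p53KO Mdm2(C462A) KI against p53Mdm2 KO cells (-0.07). On the lower side its groups did not overlap for 3 and 4 genes in the last 2 comparisons, against 14.4% and 17.1% of all genes. By limma 0 genes of either complex passed the adjusted threshold, and 1, the COP9 gene Gps1, had an unadjusted p under 0.05, at -0.52 (SE 0.190, adjusted p = 0.452) in p53KO Mdm2(C462A) KI against p53 KO cells.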

How the data were processed

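RNA-seq of total RNA from 7 MEF libraries was read in single 50 bp runs, per the labels' protocols. The deposited values are on a variance-stabilized log2 scale, 1 per gene and library. The submitters' processing notes name DESeq 1.14.0, Bowtie2 2.1.0, CASAVA 1.8.2 and the mouse build mm9, with no roles. Which tool counted reads, with which annotation and by strand or not, is not given in the sources used here. Inverting the scale gave normalized reads, and dividing by each library's step gave whole reads for 100% of values within 0.05 in each library. A floor is 3 reads and covers counting error only. Standard errors come from the limma fit, and SDs are those between libraries of a group.

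Group means were fitted to the deposited log2 values of all 7 libraries with limma 3.58.1 (mean-variance trend, R 4.3.3), two-sided, with Benjamini-Hochberg adjustment over 16900 genes, those that averaged at least 10 normalized reads. The fit was checked on simulated data for unbiased estimates of shifts larger than any difference of a member. That check does not tell how often shifts of the members' size would be called. A p under 0.05 after adjustment was called. Count tests made for raw counts were not used on these log2 values, and voom on the recovered reads was an alternative. Other alternatives were scaling, filters, log transforms, weights, a replicate block and leaving out libraries. No overlap means that all libraries of a group lie above, or below, all of another. Counts without overlap after leaving out libraries were added after seeing the data.

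Whether same-numbered libraries belong together is not given. Their deviations from the group means correlated between -0.16 and 0.20. In a group of 2 libraries the deviations mirror each other, so these correlations cannot decide it, and the libraries were treated as unpaired. Members and lists were chosen with earlier results of these data known. Values in every library are given for the catalytic subunits, for the member with the largest difference in each direction in each role and comparison, and for members with an unadjusted p under 0.05. Of other lists, immunoproteasome, activator, chaperone and Nfe2l1 genes and the gene with the largest difference in a list are named. Transcript lengths are those of the longest principal transcript in the GENCODE annotation of GRCm38, and no gene coordinates were carried to mm9.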

Additional observations from a re-analysis of the deposited data

How the results depend on the processing

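Counts of called genes were 0 in all 3 comparisons and stayed 0 in the 18 alternative settings, with 1 exception. Without both libraries that stood apart, p53KO Mdm2(C462A) KI replicate 2 and p53 KO replicate 1, 1 gene was called in p53Mdm2 KO against p53 KO cells, Ifi202b (log2 difference -6.70, limma adjusted p = 0.0315), which is no subunit gene. In that setting the members' median in p53KO Mdm2(C462A) KI against p53 KO cells was -0.0019, against -0.22 with all libraries. As said above, leaving out these libraries moves that median toward 0 in any case. Leaving out 1 library at a time gave medians of -0.0017 to 0.16 in p53Mdm2 KO against p53 KO, -0.29 to -0.08 in p53KO Mdm2(C462A) KI against p53 KO and -0.43 to -0.15 in p53KO Mdm2(C462A) KI against p53Mdm2 KO cells, with 0 genes called each time. With the replicate block, medians were -0.0017, -0.23 and -0.30 and 0 genes were called, with 442, 1486 and 279 at an unadjusted limma p under 0.05. A replicate 3 exists only in p53 KO, so the block takes up that library. These medians are the same as those without p53 KO replicate 3. Whether the numbers pair the samples is not known, so the block is not read as a finer test. Of 1887 values of single members under the alternatives, 67 moved further than the gene's spread between replicates. The other 1820 were counted as unchanged. For Psmd8, Psmd13 and Psmd14, in the comparison with an unadjusted limma p under 0.05, unchanged meant the same call at the adjusted threshold. For all others it meant a shift within that spread. Settings that change only the trend, the filter or a library outside the comparison leave a difference as it was, and count as unchanged. The count of members higher in p53KO Mdm2(C462A) KI than in p53 KO cells, 4, was 9 with quantile normalization and 10 with sample weights. Standard errors of single members ran from 0.144 to 0.317 in the comparisons with p53 KO.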

Other observations

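Of the 11 genes listed as targets of Nfe2l2, Hmox1, which degrades haem, had 8258 and 9277 normalized reads in p53KO Mdm2(C462A) KI, 5033 and 4607 in p53Mdm2 KO and 4324, 2522 and 2303 in p53 KO cells. The 3 genotypes did not overlap. Its log2 difference was 1.57 (SE 0.287) in p53KO Mdm2(C462A) KI against p53 KO cells, with an unadjusted limma p of 0.00123 and an adjusted p of 0.437, so it did not pass. The list as a whole had a median of -0.04 there, with 5 of 11 genes higher. Hmox1 and Sqstm1 were the 2 genes higher without overlap, against 14.1% of all genes, and 0 were lower without overlap, against 14.4%. Sqstm1 had 18100 and 35788 normalized reads in p53KO Mdm2(C462A) KI, 19194 and 12262 in p53Mdm2 KO and 11440, 12063 and 9663 in p53 KO cells. Syvn1, a ubiquitin ligase of the endoplasmic reticulum, had 2838 and 10191 normalized reads in p53KO Mdm2(C462A) KI, 2866 and 2294 in p53Mdm2 KO and 2474, 2677 and 2524 in p53 KO cells. Replicate 2 of p53KO Mdm2(C462A) KI, the library with the lowest subunit values, stood far above the other 6. Of the genes for polyubiquitin and ubiquitin shuttle proteins, 4 of 12 were higher in p53KO Mdm2(C462A) KI than in p53 KO cells, with a median of -0.08 and 0 at an unadjusted limma p under 0.05.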
